A study of Homo sapiens with 9 samples.

Results

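Hairpin 32-9 is 1 of 4 short hairpin RNAs that were used against lncRNA-OIS1, a long non-coding RNA, in human fibroblasts with oncogenic RAS switched on. Its single library is set here against the libraries of hairpins 32-2, 32-3 and 32-8. The comparison therefore covers 4 of the 9 libraries of the series. Of 13745 genes in the deposited table, 12481 had a value of at least 40 in at least 1 of the 9 libraries and were tested. In 8751 of the 12481 genes (70.1%) hairpin 32-9 lay outside the range of the other 3 hairpins, above it in 4529 (36.3%) and below it in 4222 (33.8%).

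All 9 libraries were polyA RNA-seq libraries of BJ cells, human fibroblasts immortalised with hTERT, the catalytic subunit of telomerase, and the labels give 14 days of 4-OHT, the ligand used to switch on RASG12V, for every one of them. The 4 lncRNA-OIS1 libraries had RASG12V activated in cells that carried 1 hairpin each. Of the other 5 libraries, 1 was a control with the non-targeting hairpin 500, which the series' design text calls untreated. A further 2 were senescent libraries with RASG12V and non-targeting hairpin 500 (replicate 1) or 507 (replicate 2), and 1 each had RASG12V with knockdown of p53 or of BRD7. Hairpin 32-9 has 1 library, so the hairpin, the culture it was put into and the preparation of the library cannot be told apart. The labels do not say whether the libraries of a group came from separate cultures, and p-values measure only the spread between these libraries, which may be technical.

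RNA interference with a hairpin lowers the transcript its guide strand pairs with, and several hairpins against the same transcript are commonly used so that what they share can be told from what belongs to a single sequence. Oncogene-induced senescence is a lasting arrest of proliferation that follows oncogenic RAS signalling. It is known for p53 and its target p21 (CDKN1A), for p16 (CDKN2A), for loss of lamin B1 (LMNB1), and for a secretory phenotype of interleukins, chemokines, proteases and growth factors. Inflammatory genes of that phenotype, such as IL1B and IL8 (CXCL8), are well-known targets of the transcription factor NF-κB. In bulk RNA, fewer cells of a kind and less RNA per cell cannot be told apart.

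Values are normalised read counts as deposited. All columns of the authors' normalised table share 1 distribution of values, and nothing lies under 20, the floor, which held 10% of the genes of each library. Depth is therefore unknown. A fold against a gene at the floor is a lower bound. No gene was analysed under the name lncRNA-OIS1, and how far each hairpin lowered it was not checked. BRD7, another targeted gene, was 94.6 in its own knockdown library and 652.9 with hairpin 32-9. HRAS had 15473.7 with hairpin 32-9, inside the range of 11855.2 to 19543.6 of the other 3 hairpins. All 17 fibroblast and mesenchymal markers tested were above the floor with hairpin 32-9, of which 6 lay above and 7 below the range of the other 3. Vimentin (VIM) had 91003.3 against 55498.9 to 70122.0, and the surface protein CD44 26190.7 against 37176.7 to 37673.0.

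The library of hairpin 32-9 differed from the other 3 far more widely than any of those did from the rest. It was over 2-fold outside the range of all 3 in 1072 genes (8.59%), above it in 513 (4.11%) and below it in 559 (4.48%). The same counts for the other hairpins, each against the remaining 3 of the 4, were 41 and 19 for 32-2, 12 and 19 for 32-3, and 68 and 38 for 32-8. Their ranges include hairpin 32-9 and can only be wider for it, so these counts are not fully alike. Across genes, the log2 values of hairpin 32-9 correlated with those of 32-2, 32-3 and 32-8 at 0.924, 0.935 and 0.92, whereas those 3 correlated with each other at 0.981 to 0.982. The BRD7 knockdown correlated with 32-2, 32-3 and 32-8 at 0.981, 0.989 and 0.982, and the p53 knockdown at 0.959, 0.982 and 0.955. With hairpin 32-9, the BRD7 knockdown correlated at 0.928 and the p53 knockdown at 0.942. These correlations describe 12481 genes that share libraries and are not replicates. Over all genes the median log2 difference was 0.01.

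Genes were called where limma, fitted to log2 values of all 9 libraries in 6 groups, gave a Benjamini-Hochberg adjusted p under 0.05 and 32-9 lay outside the range of the other 3. The lone library was assumed to vary like the groups with several libraries. These were the other 3 lncRNA-OIS1 hairpins and the 2 senescent libraries with different non-targeting hairpins. The spread behind each p-value is therefore between different hairpins, not between repeats of the same hairpin. The 2 senescent libraries correlated at 0.996 across genes. Hairpin 32-9 was singled out after its library was known to stand apart, so these calls describe that library. Of 12481 genes, 796 rose (6.38%) and 922 fell (7.39%). At least 4-fold changes were called in 183 genes upward and 167 downward, and at least 8-fold changes in 69 and 60. The 796 and 922 genes were together 1718 genes (13.8%). Among the 796, 189 had the other 3 hairpins at the floor, and among the 922, 114 had hairpin 32-9 at the floor. Of the 796 genes that rose, 670 (84.2%) were also above all 8 other libraries, and of the 922 that fell, 735 (79.7%) were below all 8. Over all tested genes, hairpin 32-9 was above all 8 other libraries in 17.3% and below all 8 in 16.2%, by over 2-fold in 2.4% and 1.79%. The number of calls rests on the senescent libraries: without senescent replicate 1, or without replicate 2, 325 genes rose and 195 fell, and with only the 4 lncRNA-OIS1 libraries 322 rose and 188 fell.

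**Figure D1:**
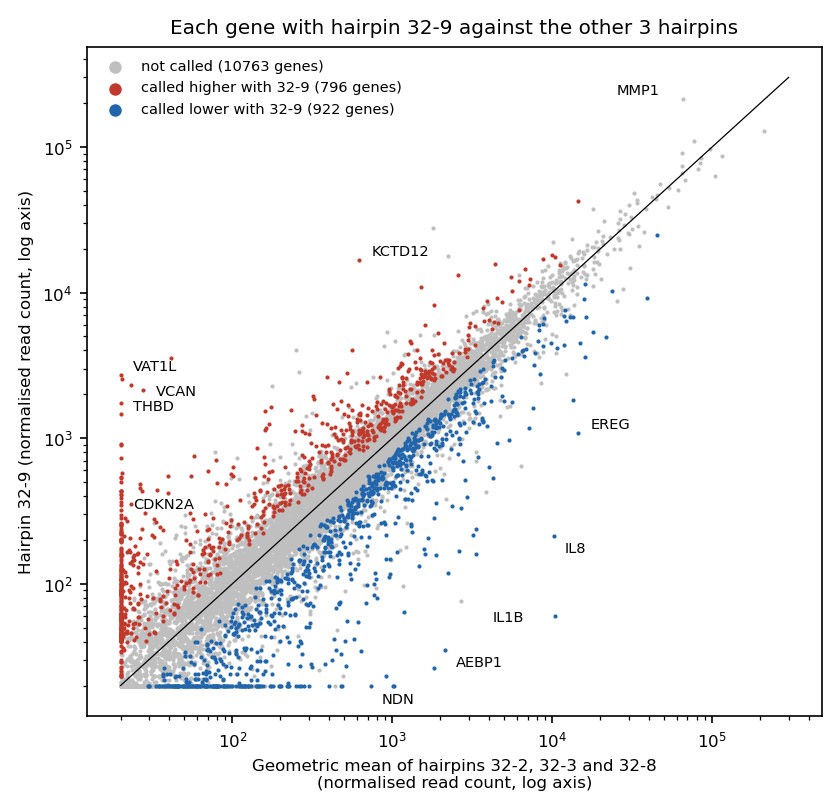
Normalised read count of each of 12481 genes with hairpin 32-9 (vertical, log axis) against the geometric mean of hairpins 32-2, 32-3 and 32-8 (horizontal, log axis). Points are genes, red where called higher (796), blue where called lower (922) and grey otherwise, and the line marks equal values; IL1B and IL8 lie far below the line, and the column of red points at the left edge holds genes at the floor of 20 in the other 3 hairpins.

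Against the senescent libraries, which both comparisons share, hairpin 32-9 had 1247 genes higher (9.99%) and 1445 lower (11.6%) at an adjusted p under 0.05 in limma. The other 3 hairpins together had 131 higher (1.05%) and 147 lower (1.18%) in the same fit.

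Counts for the gene lists below stand beside the shares over all genes tested. These were 36.3% above the range, 33.8% below it, 6.38% that rose and 7.39% that fell. Inflammatory secretory factors were the lowest-lying group with hairpin 32-9. Of 17 members tested, 11 lay below the range of the other 3 hairpins, 6 within it and 0 above it, and 5 fell (IL1B, IL8, CXCL1, CXCL2 and CXCL3, the last named after its values were seen). The list's median log2 difference was −1.44, against 0.01 over all genes. The calls of CXCL1 and CXCL3 held in all alternative settings in which they were tested. CXCL2, at the floor against 238.2, 89.2 and 135.6, was close to the threshold (adjusted p = 0.0484), and had 0.137 without senescent replicate 1 or 2 and 0.102 without 32-8. The fit without senescent replicate 1 called 2 of the 17, and the list's median went from −3.79 to −0.68 over the alternative settings. The summed level of the 17 genes was 11034 with hairpin 32-9, against 48224, 17174 and 42097 with 32-2, 32-3 and 32-8, 4648.0 and 8174.2 in the senescent libraries and 3964.3 in the control. With hairpin 32-9 most of this sum was PTGS2, described below, so the sum does not give the level of the other members.

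IL1B, the secreted cytokine interleukin-1β, had 12902.8, 4790.4 and 18474.2 with hairpins 32-2, 32-3 and 32-8 and 60.1 with 32-9. It had 1035.0 and 3344.9 in the senescent libraries, 23.2 in the control, 465.8 with p53 knockdown and 5606.9 with BRD7 knockdown. Only the control library was lower than hairpin 32-9. The log2 difference was −7.44 (SE 1.04, adjusted p = 0.0227 by limma), a 174-fold lower level. IL8, the neutrophil chemokine CXCL8, had 17615.8, 4733.9 and 12902.8 with the other hairpins and 212.0 with 32-9, while the senescent libraries had 931.6 and 2021.6 and the control was at the floor. Its log2 difference was −5.60 (SE 0.90, adjusted p = 0.0311). CXCL1, a related chemokine, was at the floor with hairpin 32-9 and in the control, and had 1144.3, 628.6 and 1513.4 with the other hairpins and 99.9 and 185.0 in the senescent libraries. It was at least 51.4-fold lower with 32-9 (adjusted p = 0.0135), a call that held in all 13 alternative settings. IL1B lost its call without senescent replicate 1 or 2 (adjusted p = 0.0614 each), without hairpin 32-2 (0.0632) or 32-8 (0.0518), and with only the 4 lncRNA-OIS1 libraries (0.0613). IL8 lost it in the same 5 settings (0.0628 to 0.0873).

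Some inflammatory members were within the range of the other 3 hairpins. PTGS2, the prostaglandin-forming enzyme COX-2, had 9940.7 with hairpin 32-9, inside the range of 5963.2 to 13977.8 of the other 3, and well above the 1938.7 and 1848.6 of the senescent libraries. IL11 had 381.3, within 259.2 to 838.2, and CSF3 had 140.4, within 20.7 to 203.1. IL6 was at the floor with hairpin 32-9 and with 32-3, and had 135.6 and 58.8 with 32-2 and 32-8. IL1A lay below the range without passing the test, at the floor with hairpin 32-9 against 61.9, 36.0 and 110.2 (adjusted p = 0.222).

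The largest falls also included ICAM1, NFKBIZ and BIRC3. ICAM1, an adhesion molecule for leukocytes, had 63.7 with hairpin 32-9 against 1802.0, 680.8 and 1330.3 with the other hairpins (log2 −4.21, adjusted p = 0.0409). It was below all 8 other libraries, the lowest of which was the p53 knockdown at 136.1. NFKBIZ, a nuclear regulator of NF-κB, had 236.8 against 4769.7, 2381.7 and 3258.9 (log2 −3.82, adjusted p = 0.014). The control, at 239.6, was close to hairpin 32-9. BIRC3, an inhibitor of apoptosis, was at the floor with hairpin 32-9 and in the control and had 406.1, 393.2 and 725.4 with the other hairpins, at least 24.4-fold higher (adjusted p = 0.0186, held in all 13 alternative settings). Without senescent replicate 1 the adjusted p was 0.084 for ICAM1 and 0.0587 for NFKBIZ, and without replicate 2 it was 0.0842 and 0.0587. ICAM1 also lost its call without hairpin 32-2 (0.0818) or 32-8 (0.0942).

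The sequences upstream of these genes are shown because 4 of them share a run of letters. They are the 250 bases before the RefSeq start on the GRCh38.p14 assembly, 5′ to 3′ on the gene's strand, with GGAATTTCC (either strand, a sequence that NF-κB binds) and TGANTCA (either strand, a sequence that AP-1 binds) in capitals. The match is on the other strand in ICAM1, where the capitals show its reverse complement.
CXCL8: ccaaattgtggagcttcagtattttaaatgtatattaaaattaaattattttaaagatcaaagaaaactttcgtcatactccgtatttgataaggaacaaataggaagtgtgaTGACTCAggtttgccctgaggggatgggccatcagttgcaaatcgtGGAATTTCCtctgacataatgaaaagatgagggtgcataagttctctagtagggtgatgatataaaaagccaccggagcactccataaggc
CXCL1: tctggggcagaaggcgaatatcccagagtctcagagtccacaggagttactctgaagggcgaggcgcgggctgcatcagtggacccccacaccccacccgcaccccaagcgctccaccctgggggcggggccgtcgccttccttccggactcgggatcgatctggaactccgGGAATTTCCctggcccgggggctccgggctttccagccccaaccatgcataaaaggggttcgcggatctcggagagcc
ICAM1: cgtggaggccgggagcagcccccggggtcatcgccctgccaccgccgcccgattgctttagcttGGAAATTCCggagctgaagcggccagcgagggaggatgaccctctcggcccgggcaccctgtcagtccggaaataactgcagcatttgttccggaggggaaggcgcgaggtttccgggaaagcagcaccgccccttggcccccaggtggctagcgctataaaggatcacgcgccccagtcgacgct
NFKBIZ: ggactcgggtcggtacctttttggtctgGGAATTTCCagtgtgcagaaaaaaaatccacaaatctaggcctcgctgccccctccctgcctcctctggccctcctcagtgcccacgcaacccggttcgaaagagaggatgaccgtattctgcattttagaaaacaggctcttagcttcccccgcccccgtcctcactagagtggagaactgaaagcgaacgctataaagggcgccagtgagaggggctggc

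The CXCL8 sequence is chr4:73740319-73740568 and that of CXCL1 chr4:73869143-73869392, both on the + strand. ICAM1 is chr19:10270870-10271119 (+) and NFKBIZ chr3:101827740-101827989 (+), the first of 2 starts the table gives. GGAATTTCC lies 91 to 83 bases before the start in CXCL8, 78 to 70 in CXCL1, 186 to 178 in ICAM1 and 222 to 214 in NFKBIZ, and CXCL8 also has TGANTCA at 137 to 131. The same windows of IL1B and BIRC3 held neither run. GGAATTTCC was chosen after these promoters had been looked at, so the shares below are a description. It occurred in 54 of 9823 tested genes with a promoter in the table (0.55%), in 6 of 131 genes called at least 4-fold lower (4.58%) and in 0 of 134 called at least 4-fold higher. Among inflammatory factors outside the range, 5 of 9 had it. The 4 genes whose sequences are shown were all called at least 4-fold lower. The 4.58% therefore includes genes that prompted the choice of this run of letters. CXCL8 and CXCL1 are also inflammatory factors outside the range, so the same holds for the 5 of 9. TGANTCA occurred in 6.25% of tested genes, 6.87% of those at least 4-fold lower and 11.9% of those at least 4-fold higher. Over all 35116 promoters of the table the shares were 0.413% and 6.57%.

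Interferon response genes lay low as well, relative to the other 3 hairpins. Their summed level was 15274 with hairpin 32-9, against 22140, 20793 and 19196 with 32-2, 32-3 and 32-8. The senescent libraries were close to hairpin 32-9, at 15427 and 15825, as was the p53 knockdown at 15474. The BRD7 knockdown had 22675 and the control 23527. Of 38 tested, 26 were below the range of the other 3 hairpins and 5 above it; 9 fell and 0 rose, with a median log2 difference of −0.51 (2 called without senescent replicate 1). TRIM22, an antiviral ubiquitin ligase, had 378.2 with hairpin 32-9 against 1319.8, 1167.2 and 1504.1 (log2 −1.81, adjusted p = 0.00727, held in all 13 alternative settings). Only the p53 knockdown library, at 327.4, was lower among all 9. IFI44 had 88.8 against 218.3, 293.8 and 319.6 (adjusted p = 0.0408) and HERC5, a ligase that attaches the ubiquitin-like ISG15, 57.8 against 135.8, 167.3 and 153.6 (adjusted p = 0.0169). The senescent libraries were close to hairpin 32-9 in both, with 114.8 and 153.1 for IFI44 and 47.7 and 55.3 for HERC5. SAMD9 went the other way without passing the test, at 1214.6 with hairpin 32-9 against 563.3, 747.1 and 525.3 and above all 8 other libraries (log2 1.01, adjusted p = 0.0625; 0.0235 without 32-3). STAT2, a transcription factor of the interferon response named after its values were seen, had 1214.9, next to the highest of the other 3, 1210.8. IFI44 and HERC5 lost their calls without senescent replicate 1 (adjusted p = 0.1 and 0.0637) or replicate 2 (0.1 and 0.0633), and IFI44 also without hairpin 32-3 (0.0766) or 32-8 (0.0807).

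Integrins, the receptors that hold cells to the matrix, were below the range in 10 of 14 genes and above it in 1, and 6 fell and 0 rose (median log2 difference −0.80; 3 called without senescent replicate 1). ITGA11, a collagen receptor subunit of fibroblasts, had 161.3 with hairpin 32-9 against 4282.7, 2350.6 and 3711.2 (log2 −4.37, SE 0.36, adjusted p = 0.00677). ITGA8 had 217.3 against 2663.9, 3197.4 and 3762.1 (log2 −3.87, SE 0.21, adjusted p = 0.00198). Both were below all 8 other libraries; the next lowest ITGA11 value was 498.6 with p53 knockdown and the next lowest ITGA8 value 1518.2 in the control. Both calls held in all 13 alternative settings. ITGA1, another collagen receptor subunit, had 330.9 against 4837.3, 2164.0 and 1891.4 (adjusted p = 0.0446), and ITGB3 225.4 against 1550.0, 932.1 and 1628.7 (adjusted p = 0.0225). ITGA5, the fibronectin receptor subunit, was the 1 member above the range, at 10457.0 against 8386.9 to 9743.6 (adjusted p = 0.244). The adjusted p without senescent replicate 1 was 0.129 for ITGA1 and 0.0862 for ITGB3, and the same without replicate 2. ITGA1 also lost its call without 32-3 (0.0687) or 32-8 (0.0619), and ITGB3 without 32-2 (0.0578) or 32-8 (0.0502).

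The fibrillar matrix list was split. Of 36 genes tested, 18 lay below and 9 above the range, 8 fell and 2 rose, and the median was −0.49 (2 fell and 1 rose without senescent replicate 1). THBS2, a matricellular glycoprotein, had 929.4 with hairpin 32-9 against 5351.6, 3924.1 and 4385.0 (log2 −2.28, adjusted p = 0.00716), and COL5A2, a collagen V chain, 5351.6 against 20464.9, 16779.3 and 17181.3 (log2 −1.76, adjusted p = 0.00701). Both held in all 13 alternative settings. In the other direction VCAN, the large proteoglycan versican, had 2135.0 with hairpin 32-9 against 20, 33.1 and 32.1 (log2 6.27, SE 0.33, adjusted p = 0.0016, held in all 13). The highest VCAN value elsewhere was 142.3 with p53 knockdown. The main fibrillar collagen chains COL1A1 and COL1A2, named after their values were seen, were inside the range at 16210.4 and 28437.1. AEBP1, a collagen-binding matrix protein outside the list, had 35 with 32-9 against 1958.7, 1860.0 and 2704.6, a log2 difference of −5.94 (SE 0.24, adjusted p = 0.000585). The other 5 libraries had 1057.8 to 3939.9 of AEBP1, so hairpin 32-9 was the only one without a substantial level.

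Of 18 contractile and TGF-β response genes, 7 lay below and 3 above the range, 2 fell and 1 rose (median −0.20; 2 and 1 without senescent replicate 1). The 2 that fell were TPM1, a tropomyosin of actin filaments, with 631.7 against 4167.0, 3402.9 and 4637.0 (log2 −2.68, adjusted p = 0.00406), and MYLK, the kinase that activates smooth muscle-type myosin, with 4536.8 against 16210.4, 15672.0 and 13043.1 (log2 −1.72, adjusted p = 0.00865). Both were below all 8 other libraries and held in all 13 alternative settings. The 1 that rose, LMOD1, had 40.6 against the floor in all 3 other hairpins (adjusted p = 0.0379), close to the 32.2 and 43.8 of the senescent libraries; it lost its call without 32-2 (0.0885), 32-3 (0.0739) or 32-8 (0.0877).

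Several of the largest falls were of genes that all 8 other libraries expressed. NDN, the growth-restraining protein necdin, was at the floor with hairpin 32-9 and between 500.0 and 822.8 in the other 8 libraries (at least 37.0-fold lower than the other 3 hairpins, adjusted p = 0.000135). INA, an intermediate filament protein of neurons, was at the floor with 32-9 and between 553.4 and 1206.3 elsewhere (at least 50.8-fold, adjusted p = 0.00238). PIEZO2, a mechanically gated ion channel, had 23.1 with 32-9 against 1023.9, 627.8 and 1169.2 with the other hairpins, 137.9 in the control and 208.7 with p53 knockdown (log2 −5.30, adjusted p = 0.00583). CPXM2 had 117.7 against 2308.4, 1725.0 and 2778.8 (log2 −4.24, adjusted p = 0.00357), and RAB27B, a GTPase of vesicle secretion, 169.2 against 3108.0, 2208.8 and 2640.9, with 532.2 in the control (log2 −3.96, adjusted p = 0.0016). These 5 calls held in all 13 alternative settings, and hairpin 32-9 was below all 8 other libraries in each. LRRN3 had 26.2 against 1840.3, 882.1 and 3704.3, and 246.7 with p53 knockdown (adjusted p = 0.0212; 0.083 without senescent replicate 1, 0.0831 without replicate 2 and 0.0604 without 32-2). In all, 311 genes were at the floor with hairpin 32-9 and above it in all 3 others, and 8 of them had at least 200 in each of the 3.

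The largest rises were of genes that the other libraries hardly showed. Of 295 tested genes at the floor in hairpins 32-2, 32-3 and 32-8, 199 were above it with 32-9 and 34 had at least 200; 29 of these 34 had 20 in each other library. VAT1L had 2708.7 with hairpin 32-9 and 20 in every other library, at least 135-fold higher (adjusted p = 9.79e-06). CNTN1, a neural cell adhesion molecule, had 1470.6 and SRGN, a proteoglycan of secretory granules, 900.9, again with 20 in each of the other 8 libraries. NGFRAP1 (BEX3) had 2544.8 against 20 to 25.4, and THBD, the anticoagulant receptor thrombomodulin, 1754.4 against 20 to 27.3. Where a gene sat at the floor in all replicates their spread was 0, so its p-value depends on the variance borrowed from other genes. Some of these genes had a second, smaller level with p53 knockdown. SLC6A15, an amino acid transporter, had 3567.6 with hairpin 32-9 and 439.1 with p53 knockdown, against 61.7 or less elsewhere (adjusted p = 0.014; 0.0642 and 0.0641 without senescent replicate 1 and 2). CELF2, an RNA-binding protein, had 727.8 and 88.3, against 20 in the other 7.

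Among genes expressed in all 4 lncRNA-OIS1 libraries, KCTD12, an auxiliary subunit of GABA-B receptors, rose most. It had 16779.3 with hairpin 32-9 against 897.2, 571.2 and 460.0 (log2 4.76, SE 0.41, adjusted p = 0.00729), and 2146.8 with p53 knockdown, 657.4 and 540.8 in the senescent libraries and 146.4 in the control. HAS2, which makes hyaluronan, had 4054.7 against 463.9, 616.7 and 607.7 (log2 2.86, SE 0.21, adjusted p = 0.00474), with 924.8 the next highest, also with p53 knockdown. NEO1, a receptor for netrins, had 547.4 against 67.4, 42.2 and 58.7 (log2 3.31, adjusted p = 0.00753), and LOXL4, a lysyl oxidase-like enzyme, 1258.6 against 198.2, 147.1 and 168.7 (log2 2.89, adjusted p = 0.00396). All 4 calls held in all 13 alternative settings, and hairpin 32-9 was above all 8 other libraries in each. GAS1, a gene known from growth arrest, had 712.1 against 55.6, 61.1 and 146.0 but 875.0 in the control; its adjusted p was 0.0469 and passed 0.05 without senescent replicate 1 (0.131), without replicate 2 (0.131), without 32-2 (0.0883) and without 32-3 (0.0816).

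The p53 knockdown library was often the extreme one among the 5 libraries with no lncRNA-OIS1 hairpin, of which the 2 senescent ones entered the calls through their spread. Of the 183 genes called at least 4-fold higher with hairpin 32-9, 106 had a single highest library among the other 5, and this was the p53 knockdown in 46 (43.4%), against 28.0% over all tested genes. For the 167 genes called at least 4-fold lower, the p53 knockdown was the lowest of the 5 in 58 (34.7%), against 24.7% over all genes. The control was the highest of the 5 in 34.0% of the first set (29.3% over all genes) and the lowest in 35.9% of the second (35% over all genes). These shares were not tested.

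Regulators of senescence moved unevenly with hairpin 32-9. CDKN2A, the locus of the cell-cycle inhibitor p16 and of ARF, had 362.3 with hairpin 32-9 and was at the floor in each of the other 8 libraries, senescent ones included. It was at least 18.1-fold higher (adjusted p = 9.79e-06 by limma, held in all alternative settings in which it was tested). CDKN2A was tested only because of hairpin 32-9, and its p-value depends on the variance borrowed from other genes. That its call held is therefore no further support. The neighbouring inhibitor CDKN2B had 610.0 against 395.9, 215.7 and 256.1, the highest of all 9 libraries, without passing the test (adjusted p = 0.137). CDKN1A, which encodes p21, lay lower, at 6989.6 against 15473.7, 11146.3 and 12588.4 with the other hairpins, 18745.7 and 22372.6 in the senescent libraries and 2721.1 with p53 knockdown (log2 −0.89, adjusted p = 0.0753, and 0.0442 among genes with a mean of at least 80). Of 32 genes in the list of cyclin-dependent kinase inhibitors and senescence regulators, 10 were above and 12 below the range, 1 rose and 4 fell, and the median was 0.03. Those that fell included ID1 and ID3, dominant negative regulators of helix-loop-helix factors, at 512.0 against 1494.9 to 1963.0 and 507.0 against 1356.0 to 2382.8 (adjusted p = 0.0123 and 0.0376). None of the 4 was called without senescent replicate 1, where ID1 and ID3 had adjusted p = 0.0535 and 0.116 (the same without replicate 2); ID3 also lost its call without 32-8 (0.0879). HMGA2, a chromatin protein, had 3908.3 against 10883.3, 10100.4 and 6128.1 (adjusted p = 0.115), and 0.0176 without 32-8. DPP4, a surface protease, had 922.9 against 1344.6, 1248.8 and 2390.0 (adjusted p = 0.268), and GLB1, the lysosomal β-galactosidase, 1022.8 against 1028.7 to 1094.2 (adjusted p = 0.781).

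Targets of p53 lay low together. Among all genes tested, 33.8% lay below the range, 7.39% fell and 6.38% rose. Of 34 tested, 22 were below the range and 3 above it, 4 fell and 0 rose, and the median log2 difference was −0.39. PMAIP1, which encodes the pro-apoptotic protein NOXA, had 1744.0 with hairpin 32-9 against 3176.9, 3620.3 and 4485.3 (adjusted p = 0.046). ZMAT3 had 1695.8 against 3998.3, 2769.8 and 4096.8 (adjusted p = 0.0673), and FDXR 207.4 against 450.0, 342.3 and 584.3 (adjusted p = 0.099). Values with p53 knockdown were lower still for ZMAT3 and FDXR, at 791.2 and 133.3. MDM2, the ligase that degrades p53, had 1683.2 against 2140.7, 2217.4 and 3657.1 (adjusted p = 0.29). The count of called targets was 0 without senescent replicate 1 and 8 among genes with a mean of at least 80. PMAIP1 had adjusted p = 0.126 without senescent replicate 1 or 2 and 0.0804 without 32-3; without 32-3 ZMAT3 and FDXR passed (0.00426 and 0.0497).

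Most mitosis genes were within the range of the other hairpins, whereas most DNA replication genes lay above it, and 1 gene of both lists together was called. Of 40 mitosis genes, 30 were inside the range, 8 above and 2 below, 0 were called in either direction, and the median was 0.26; it was between 0.03 and 0.51 over the alternative settings. Of 42 DNA replication and E2F target genes, 27 were above the range and 1 below it, 1 rose and 0 fell, with a median of 0.44. The 1 that rose, the transcription factor E2F2, had 36.2 with hairpin 32-9 against 20, 22.6 and 20, near the floor (adjusted p = 0.0136; 0.0635 and 0.0634 without senescent replicate 1 and 2); it is named after its values were seen. MKI67, which encodes the proliferation marker Ki-67, had 5657.9 against 2574.2, 5049.7 and 2960.2 (adjusted p = 0.305), and LMNB1 949.6 against 526.3, 922.7 and 347.1 (adjusted p = 0.41). The values of hairpin 32-3 were close to those of 32-9 in both, and the p53 knockdown was higher in both, at 6931.1 and 1015.8.

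Amino acid supply genes were the group lying highest with hairpin 32-9. These are targets of ATF4, the factor that raises amino acid synthesis and tRNA charging under stress. Of 22 tested, 18 were above the range and 3 below it, 8 rose and 1 fell, and the median log2 difference was 0.78 (3 rose and 0 fell without senescent replicate 1). ASNS, asparagine synthetase, had 879.1 against 324.8, 290.1 and 399.9 (log2 1.39, adjusted p = 0.0249), and TRIB3, a pseudokinase, 1089.6 against 390.8, 240.9 and 244.1 (log2 1.94, adjusted p = 0.0354). PSAT1, of serine synthesis, had 1140.1 against 197.3, 330.6 and 433.0 (log2 1.90, adjusted p = 0.0798). The senescent libraries were below hairpin 32-9 in these 3 genes, and the control was above hairpin 32-9 for ASNS and PSAT1, at 2048.0 and 3454.9. The gene that fell, SLC7A11, a cystine importer, had 1806.8 against 4221.8, 3532.4 and 4847.3 (log2 −1.21, adjusted p = 0.0306). ATF4 had 3454.9 against 2300.0, 2187.9 and 2335.3 (log2 0.60, adjusted p = 0.0109). The adjusted p without senescent replicate 1 was 0.0915 for ASNS, 0.11 for TRIB3, 0.101 for SLC7A11 and 0.0627 for ATF4, and 0.0914, 0.11, 0.101 and 0.0627 without replicate 2. ASNS (0.0654) and SLC7A11 (0.0763) also lost their calls without 32-2, and TRIB3 without 32-3 (0.0628) or 32-8 (0.0764).

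Other metabolic lists gave smaller shifts, and their few calls stand beside 6.38% of all genes tested that rose and 7.39% that fell. Of 26 glycolysis and hypoxia genes, 15 were above and 5 below the range, 4 rose and 1 fell, with a median of 0.30, and without senescent replicate 1, 1 rose and 0 fell. NDRG1, a hypoxia-induced gene, had 2630.2 against 597.1, 374.7 and 267.2 (log2 2.75, adjusted p = 0.0343; 0.111 without senescent replicate 1 or 2 and 0.0695 without 32-3). The p53 knockdown library had 1624.7 of NDRG1. Of 23 cholesterol synthesis genes, 12 were above and 2 below, 2 rose and 0 fell, with a median of 0.32. Lysosomal genes (36; 8 above, 15 below, 0 rose, 3 fell) and unfolded protein response genes (24; 8 above, 8 below, 2 rose, 0 fell) had medians of −0.06 and −0.02. Of 16 antioxidant and NRF2 targets, 3 were above and 9 below, 0 rose and 3 fell, with a median of −0.31. NQO1, a quinone reductase, had 6751.1 against 15672.0, 14498.6 and 18745.7 (log2 −1.26, adjusted p = 0.0196; 0.0835 without senescent replicate 1 or 2 and 0.0524 without 32-2). The calls in the cholesterol, lysosomal, unfolded protein and NRF2 lists were 0 without senescent replicate 1.

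Direct outputs of RAS-MAPK signalling were split. Of 26 tested, 12 were above and 9 below the range, 4 rose and 1 fell, and the median was 0.03; without senescent replicate 1, 1 rose and 1 fell. DUSP6, a phosphatase that feeds back on ERK, had 9870.8 against 8402.9, 5182.2 and 7949.9 (adjusted p = 0.341), and SPRY2, another feedback inhibitor, was inside the range at 5242.4. EREG, the growth factor epiregulin, had 1089.8 against 19965.9, 10922.3 and 14174.3 (log2 −3.74, SE 0.37, adjusted p = 0.0102; 0.0504 with only the 4 lncRNA-OIS1 libraries). It was below all 8 others, the control being next at 1376.1. EPHA4, a receptor tyrosine kinase, had 1557.9 against 261.8, 221.7 and 217.3 (log2 2.74, adjusted p = 0.00368, held in all 13 alternative settings). Of the 26, 12 were above all 8 other libraries with hairpin 32-9 and 1 below all 8. Over all genes these shares were 17.3% and 16.2%. Over the settings, log2 differences were 1.03 to 1.48 for FOS, 1.14 to 1.28 for JUN and 1.96 to 2.68 for EGR1. LIF and HBEGF were lower, at −2.28 to −1.01 and −1.31 to −0.775. Of FOS, JUN, EGR1, LIF and HBEGF, only FOS and JUN were called, and both lost their calls without senescent replicate 1 or 2.

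Secreted proteases and growth factors were mixed. Of 35 tested, 10 were above and 14 below the range, 4 rose and 4 fell, and the median was −0.29; without senescent replicate 1, 3 rose and 1 fell. MMP1, interstitial collagenase, had 211606.6 with hairpin 32-9, against 63004.2, 40950.0 and 110360.7 with the other hairpins (log2 1.69, adjusted p = 0.139). The value with 32-9 is the top of the distribution that all libraries share, so it marks the first rank within that library. FGF7, a growth factor for epithelium, had 82.4 and every other library had 20 (adjusted p = 2.3e-05 by limma). It was tested only because of hairpin 32-9, and its p-value depends on the variance borrowed from other genes. TIMP1, an inhibitor of metalloproteinases, had 8189.0 against 2422.1, 1842.9 and 1382.8 (log2 2.16, adjusted p = 0.027). Only the control, at 5657.9, came near. Its adjusted p was 0.0958 and 0.096 without senescent replicate 1 and 2, and 0.0585 without 32-3. VEGFA, the vascular growth factor, had 1263.7 against 351.8, 370.0 and 370.8 (adjusted p = 0.00188, held in all 13 alternative settings), and 773.2 with p53 knockdown. It and the plasminogen activators below are named after their values were seen. The plasminogen activators were both lower: PLAT had 4952.0 against 23014.8, 25364.9 and 17757.0 (log2 −2.14, adjusted p = 0.0118) and PLAU 9227.6 against 45321.7, 27815.0 and 46989.9 (log2 −2.08, adjusted p = 0.0351). PLAT and PLAU had 0.0587 and 0.109 without senescent replicate 1 or 2, and PLAU also lost its call without 32-2 (0.0789) or 32-8 (0.0708). STC1, a secreted glycoprotein, was inside the range at 110360.7.

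Transcription factors that mark body position and cell lineage rose more often than they fell. The shares over all genes tested were 6.38% that rose and 7.39% that fell. Of 33 tested, 19 were above and 8 below the range, 8 rose and 1 fell, and the median was 0.59; without senescent replicate 1, 4 rose and 1 fell. FOXC2, a forkhead factor of mesoderm, had 114.9 against the floor in the other 3 hairpins (adjusted p = 1.9e-05), and 40.4 with p53 knockdown. FOXL1, another forkhead factor, had 1144.3 against 151.7, 254.0 and 105.1 (log2 2.84, adjusted p = 0.0395; 0.12 without senescent replicate 1 or 2 and 0.0922 without 32-2). TBX15, a T-box factor of limb and skeleton, was the 1 that fell, at 54.1 against 344.7, 257.8 and 322.3 (log2 −2.50, adjusted p = 0.00648), below the 254.2 to 393.6 of the other 5 libraries. MSX1 had 1424.9 against 382.4, 375.4 and 167.7, short of the threshold (adjusted p = 0.067), but 0.0106 without 32-8. Among 14 HOX genes, which record position along the body axes, 3 were above and 8 below the range, 3 rose and 1 fell, and the median was −0.48. HOXC8 had 92.0 and every other library 20 (adjusted p = 2e-05), while HOXD10 was at the floor against 63.1, 82.0 and 65.3 (adjusted p = 0.0161; 0.054 and 0.0536 without senescent replicate 1 and 2). HOXA13 had 177.7 against 393.2, 286.1 and 364.7 (adjusted p = 0.0615; 0.0303 without 32-3). Levels are compared within a gene only.

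Markers of other cell types gave low or mixed values. Of 17 mesenchymal and fibroblast markers, 6 were above and 7 below the range, 1 rose and 2 fell, and the median was 0.06; their summed level was 203900 with hairpin 32-9 and 199430 to 204080 with the other 3. Leukocyte markers (4 of 15 tested) summed to 130.8 against 199.1 to 255.6, with PTPRC, the pan-leukocyte antigen CD45, at the floor in all 4 hairpin libraries. Epithelial markers (4 of 20 tested) summed to 930.2 against 1211.8 to 2161.1, with KRT19 at 40.7 against the floor elsewhere. Endothelial markers (2 of 11 tested) summed to 234.1 against 139.5 to 191.1, melanocyte markers (2 of 9) to 316.8 against 438.0 to 627.1, and the 1 skeletal muscle marker of 14 had 92.0 against 81.1 to 290.0. Of 18 pluripotency and germ line markers, 0 were in the table. Among 7 of 22 neural markers tested, 3 rose and 3 fell, and they summed to 15044 against 6974.2 to 10122, most of it NES, an intermediate filament protein of many immature cells, at 14455.7 (adjusted p = 0.048; 0.136 without senescent replicate 1 or 2, 0.0815 without 32-2 and 0.0628 without 32-3). GAP43, of growing axons, had 202.1 and NEFL, a neurofilament, 99.9, both at the floor in the other 8 libraries, whereas INA fell as described and TUBB3, neuronal tubulin, fell to 47.8 against 136.1, 119.4 and 129.0 (adjusted p = 0.00677). Whether another cell type takes part in any of the differences was not tested.

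Genes that RAS changed were chosen on libraries outside the hairpin comparison, by a difference of at least 4-fold from the control in each senescent library, in the same direction. Of 278 genes raised, 136 (48.9%) were below the range of the other 3 hairpins with 32-9 and 74 (26.6%) above it, against 33.8% and 36.3% over all genes. Of the 278, 52 fell (18.7%) and 21 rose (7.55%). Their median log2 level relative to the control was 2.21 with hairpin 32-9, against 2.64, 2.59 and 2.88 with 32-2, 32-3 and 32-8 and 2.83 in the senescent libraries. The median log2 difference from the other 3 was −0.41, and −0.24 without hairpin 32-8. Of 321 genes lowered by RAS, 124 (38.6%) were above the range and 80 (24.9%) below it, 40 rose and 26 fell, and their median relative to the control was −2.60 with 32-9 against −2.67, −2.69 and −2.76.

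The differences were not spread evenly along the chromosomes. With the 12049 tested genes that have a place in the RefSeq order (GRCh38.p14), the longest run of neighbouring genes all outside the range on the same side was 62 genes on chromosome 19, from PTBP1 to HMG20B. All 62 were above the range, and 42 of them were called (67.7%). Outside the stretches on chromosomes 17 and 19, 720 of the 4309 genes above the range were called higher. The median log2 difference of the 62 genes was 1.15, or 2.22-fold, with quartiles of 0.86 and 1.25. The direction of the run is what defines it. As a description, hairpin 32-9 was also above the other 5 libraries in 55 of the 62 genes (88.7%), and in 47.2% of the genes above the range that lie outside both stretches. OAZ1, which degrades the polyamine enzyme ornithine decarboxylase, had 7808.4 with hairpin 32-9 and 3365.4 to 4138.4 in the other 8 libraries (log2 1.08, adjusted p = 0.00994). PTBP1, a splicing regulator, had 5840.3 against 2247.6 to 3593.8 in the other 8 (log2 0.95, adjusted p = 0.00537), and AP3D1, an adaptor of vesicle transport, 2961.6 against 1079.9 to 1451.9 (log2 1.21, adjusted p = 0.00425). All 3 were close to 2-fold higher. The PTBP1 and AP3D1 calls held in all 12 alternative settings in which they were tested; OAZ1 had 0.0548 without senescent replicate 1 and 0.0549 without replicate 2. In the window of 25 genes from PIP5K1C to KDM4B, after the run, 20 were still above the range and 1 below it, with a median of 0.34. The 756 genes that follow the run on chromosome 19 had a median of 0.06.

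On chromosome 17, 429 neighbouring genes from GGNBP2 to METRNL, the last in the order, lay low with hairpin 32-9. The limits of this stretch were set after the values were seen. Of the 429, 323 were below the range (75.3%) and 33 above it (7.69%), 127 fell (29.6%) and 10 rose (2.33%), and the median log2 difference was −0.47, or 72.1% of the level with the other 3. Of the 323 genes below the range, 238 (73.7%) were also below the other 5 libraries, as were 45.9% of the genes below the range outside both stretches; since the values of hairpin 32-9 set the limits, this too is a description. The 275 genes of chromosome 17 before the stretch had a median of 0.07. Among members, ITGA3, the laminin receptor subunit, had 3593.8 with hairpin 32-9 and 11193.4 to 18103.0 in the other 8 libraries (log2 −2.15, adjusted p = 0.000495, held in all 12 alternative settings in which it was tested). TIMP2, a metalloproteinase inhibitor, had 6740.9 against 13710.8, 12432.6 and 14273.3 (adjusted p = 0.014; 0.068 and 0.0682 without senescent replicate 1 and 2). DDX5, an RNA helicase, had 11452.3 against 17015.7, 16013.9 and 15227.7, a log2 difference of −0.49 close to the median of the stretch (adjusted p = 0.0479). DDX5 lost its call without senescent replicate 1 or 2 (0.155 each), 32-2 (0.076), 32-3 (0.0685) or 32-8 (0.0568).

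No other library showed these stretches. Measured against the median of the remaining 8 libraries, the chromosome 19 run had a median log2 level of 1.10 with hairpin 32-9 and between −0.17 and 0.06 in each of the other 8. The chromosome 17 stretch had −0.49 with hairpin 32-9 and between 0.00 and 0.07 in each of the other 8. In 473 successive windows of 25 neighbouring genes, the median log2 difference of hairpin 32-9 from the other 3 was above 0.4 in 3 windows, all on chromosome 19, and below −0.4 in 13, of which 12 were on chromosome 17 and 1 on chromosome 19. The same counts were 0 and 1 for hairpin 32-2, 0 and 0 for 32-3, and 0 and 1 for 32-8, each against the rest of the 4, which includes 32-9. Smaller clusters of zinc finger genes on chromosome 19 lay lower with hairpin 32-9, such as 14 neighbours from ZNF714 to ZNF254 with a median of −0.91 and 10 from ZNF441 to ZNF44 with −1.01. Zinc finger genes of this kind resemble each other in sequence, and reads could be exchanged between them. DNA was not measured, so whether the copy number of these stretches differs was not tested. Outside both stretches 744 genes rose and 795 fell, so most calls lay elsewhere, and the inflammatory, interferon and amino acid lists had medians of −1.54, −0.51 and 0.78 there. Integrins had 3 members in the chromosome 17 stretch (ITGA3, ITGB3 and ITGB4), and the remaining 11 had a median of −0.69 with 4 that fell.

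The rule has no margin, so genes near its limits differ by very little. TBC1D23, just outside the range, had 1351.2 with hairpin 32-9 against a highest value of 1350.9 with the other 3, and N4BP1, just inside, had 556.0 against 556.1. In 253 genes the value of 32-9 equalled a limit of the range and was counted as inside. At the minimum of 40, JAKMIP3 was kept with a highest value of 40 over the 9 libraries and PKD1L1 was left out with 39.9.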

How the data were processed

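PolyA RNA-seq libraries of 9 BJ cell samples were taken from 1 table that the authors deposited: a normalised signal per gene and library. Per the submitters' processing notes TopHat2, HTSeq and the build hg19 were used; the sources used here give no version, strand setting or annotation. Quantile normalisation and the floor of 20 are read from the values: each library totals 14916466.5 with a median of 340.1. Equal distributions remove differences in total RNA and hide depth. Reads may be split between overlapping or similar genes. Of 1030 genes with no symbol and 21 whose symbol had become a date, 849 were named from a gene table; RefSeq gave gene order and promoters.

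Log2 values, with no pseudocount, were fitted in R 4.3.3 with limma 3.58.1 (6 groups, 3 residual degrees of freedom, trend, two-sided, Benjamini-Hochberg over 12481 genes). Python 3.11.15 with pandas 2.3.3 and numpy 2.4.6 made counts and medians, and matplotlib 3.10.9 the plots. Log2 differences compare 32-9 with the mean log2 of the other 3. On simulated data with 200 of 12481 genes changed, 60.0% of 2-fold, 95.0% of 4-fold and 99.5% of 8-fold changes were recovered. The changed genes were drawn only from genes well above the floor, and each gene had the same spread in every library. These rates therefore do not cover genes near the floor or a lone library that varies more than the others.

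Named genes were a fixed set, the 10 largest rises and falls among called genes, the same among genes at 40 or more in all 4 lncRNA-OIS1 libraries, up to 4 members of each list in each direction, and genes at the limits of the rule. Genes named in the chromosome stretches, CXCL3, VEGFA, PLAT, PLAU, E2F2 and a few inside the range, were chosen after their values were seen. The members and the 27 lists were chosen with earlier results of these data known. Lists have no test of their own. The 13 alternative settings were pseudocounts of 10 and 50, no filter, a mean of at least 80, leaving out each of 5 replicates, only the 4 lncRNA-OIS1 libraries, median-of-ratios scaling, no trend, and, added after the data were seen, leaving out the 2 stretches of neighbouring genes. The values of a few genes are not reported here.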

Additional observations from a re-analysis of the deposited data

How the results depend on the processing

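Leaving out 1 senescent or lncRNA-OIS1 replicate at a time gave 325 to 879 genes called higher and 195 to 972 called lower. With only the 4 lncRNA-OIS1 libraries the counts were 322 and 188, of which 498 were among the 1718 calls of the fit to all 9 libraries; without senescent replicate 1 or 2, 508 were. These fits have fewer samples to estimate the spread. The median log2 difference of genes raised by RAS ran from −0.473 to −0.239 when 1 replicate was left out. That of the chromosome 19 run was 1.08 with a pseudocount of 10 and 0.951 with 50, and that of the chromosome 17 stretch was −0.406 with a pseudocount of 50 and −0.494 for genes with a mean of at least 80. Of 213 named genes, 108 were called, 50 of these under every alternative in which they were tested, and 0 changed sign while called. Of 596 counts of called list members, 144 moved by over 1.5 times, and of 298 list medians 23 moved by more than the spread between the other 3 hairpins. Where the cause of such a change is not the smaller number of samples or genes, the cause was not tested. No paired analysis was possible because hairpin 32-9 is the only library with its replicate number. Depth is unknown, and the floor of 20 hides changes below it.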
